A study of Mus musculus with 23 samples.

Results

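Transcript of 9 marker genes of vascular smooth muscle cells and pericytes was followed in the left ventricle, the heart chamber that pumps blood into the aorta, of mice that had inhaled e-cigarette aerosol. The genes were taken by name, as markers of these cells. They were Myh11, Acta2, Tagln and Cnn1 (contractile proteins of smooth muscle), Notch3, Pdgfrb, Rgs5 and Cspg4 (membrane and signalling proteins of mural cells), and Abcc9 (a subunit of a potassium channel). All 9 were found by gene ID and symbol among the 49315 genes of the deposited count table, and all 9 were among the 15500 genes with enough counts to be tested.

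FVB mice, an inbred laboratory strain, were exposed in daily sessions of 4 hours, 5 days per week, for 3 months, and RNA of the left ventricle was sequenced in 23 libraries. Mice that started at 3 months of age received e-cigarette vehicle with nicotine (4 libraries), e-cigarette vehicle alone (4 libraries) or filtered air (4 libraries). Mice that started at 3 weeks of age received vehicle with nicotine (4 libraries), vehicle alone (3 libraries) or filtered air (4 libraries). Groups are named below by starting age and exposure, and libraries by the replicate numbers of the labels, some of which are missing. The design asks whether aerosol with or without nicotine differs from air, and whether that differs with the age at which exposure began. Because every exposure lasted 3 months, the starting age cannot be told apart from the age at the end. The labels do not tie each library to its own animal, so p-values measure only how far these samples differ from each other, which may be technical.

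Mural cells wrap the vessels of the heart. Smooth muscle cells form rings around arteries and arterioles and set their width by contracting, whereas pericytes lie along capillaries within the vessel's basement membrane, and cardiac muscle has a dense capillary bed. Endothelial cells recruit mural cells by releasing the growth factor Pdgfb, which binds Pdgfrb, and by displaying the ligand Jag1, which activates Notch3. In smooth muscle the coactivator Myocd joins the transcription factor Srf on a DNA element called the CArG box, found near contractile genes such as Acta2, Tagln, Cnn1 and Myh11. Acta2 and Tagln are also made by activated fibroblasts, and Abcc9 is also made by cardiomyocytes.

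The promoters of Acta2, Cnn1 and Rgs5 are shown because the first pair belong to the contractile genes, which varied together between libraries, whereas Rgs5 was the most abundant of the genes that did not vary with them. Sequences are the 250 bases before the gene's start in RefSeq (GRCm38.p6), 5′ to 3′ on the gene's strand. The windows are chr19:34255374-34255623 (minus strand) for Acta2, chr9:22099003-22099252 (plus strand) for Cnn1 and chr1:169655251-169655500 (plus strand) for Rgs5. Capitals mark matches to the CArG box with up to 1 mismatch in its A/T core.
Acta2: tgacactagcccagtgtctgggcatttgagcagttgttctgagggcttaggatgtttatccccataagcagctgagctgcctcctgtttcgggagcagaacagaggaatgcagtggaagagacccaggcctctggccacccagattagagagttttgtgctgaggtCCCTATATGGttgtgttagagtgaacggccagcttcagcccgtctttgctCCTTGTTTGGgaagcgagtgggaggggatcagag
Cnn1: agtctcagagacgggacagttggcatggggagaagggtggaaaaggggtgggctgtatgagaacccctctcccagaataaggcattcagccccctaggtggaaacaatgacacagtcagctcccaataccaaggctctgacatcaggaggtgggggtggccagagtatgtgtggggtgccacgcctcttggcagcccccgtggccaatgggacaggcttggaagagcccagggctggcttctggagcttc
Rgs5: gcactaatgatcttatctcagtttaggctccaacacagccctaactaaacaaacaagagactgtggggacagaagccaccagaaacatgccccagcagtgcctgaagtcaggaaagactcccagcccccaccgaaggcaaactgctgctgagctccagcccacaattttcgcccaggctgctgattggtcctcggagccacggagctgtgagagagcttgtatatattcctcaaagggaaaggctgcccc
The Acta2 window held 2 such matches, 84 to 75 and 34 to 25 bases before the start, each with 1 mismatch, and no exact box. The Cnn1 and Rgs5 windows held 0 matches. A window was in the table for 6 of the 9 genes, and those of Notch3, Cspg4 and Abcc9 also held 0. Of 32851 promoter windows of the same length, 8.59% held at least 1 match with up to 1 mismatch, 0.67% held 2 or more and 1.47% held an exact box. The CArG box reads alike on both strands, so both were covered by one search, and these are matches of letters only.

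Library totals ran from 12297955 to 17821550 counts. Levels are CPM, counts scaled to a common library size, after TMM scaling, which adjusts that size for composition. Markers of ventricular cardiomyocytes summed to 68818 to 92494 CPM in every library. Of the atrial genes, Myl7 was at 0 in 7 libraries and reached 68.3 CPM, Sln was at 0 in 8 and reached 17.1 CPM, and Bmp10 was at 0 in 7 and reached 1.01 CPM. Myl4 ran from 1.32 to 98.9 CPM, Dkk3 from 1.9 to 32.8 CPM and Nppa from 68.0 to 323 CPM. The skeletal muscle myosins Myh1, Myh2 and Myh4 reached 0.155, 0.214 and 0.157 CPM, while Acta1, which the heart also makes, ran from 218 to 1498 CPM. In bulk tissue, fewer cells of a type and less RNA per cell cannot be told apart.

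Set against exonic length, Rgs5, a regulator of G-protein signalling that marks cardiac pericytes, was the most abundant of the 9 genes, with a mean level of 116.5 CPM per kilobase (range over the 23 libraries 64.7 to 135). Acta2, smooth muscle alpha-actin, had a mean level of 64.1 CPM per kilobase (37.9 to 127) and Abcc9 one of 48.6 (20.2 to 68.2), and these ranges overlapped each other. Pdgfrb followed at 16.2 CPM per kilobase (11.6 to 21.6), Myh11 at 12.5 (8.0 to 36.5) and Notch3 at 10.6 (8.01 to 13.8), again with overlapping ranges. Tagln was at 6.17 CPM per kilobase (3.56 to 19.0), Cspg4 at 2.65 (2.01 to 3.63) and Cnn1 at 1.5 (0.571 to 5.29). Cnn1 had 19 to 187 counts per library, so counting error is largest for it, whereas Rgs5 had 4002 to 11037 counts. The level of Acta2 is uncertain, since its reads could be split with the near-identical cardiac and skeletal actins Actc1 and Acta1, which had mean levels of 5430 and 449 CPM per kilobase. Actc1 was itself lower at the 3-week start in nicotine against air (-0.43 log2, edgeR adjusted p = 0.04996) and in vehicle against air (-0.55 log2, adjusted p = 0.0145), calls that were lost without air library 1. In the GENCODE vM21 annotation Tagln overlaps Pcsk7, and Tagln, Notch3 and Abcc9 each overlap an antisense gene. The strand setting of the counting is not given in the sources used here. Reads of these partners cannot be told apart.

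**Figure D1:**
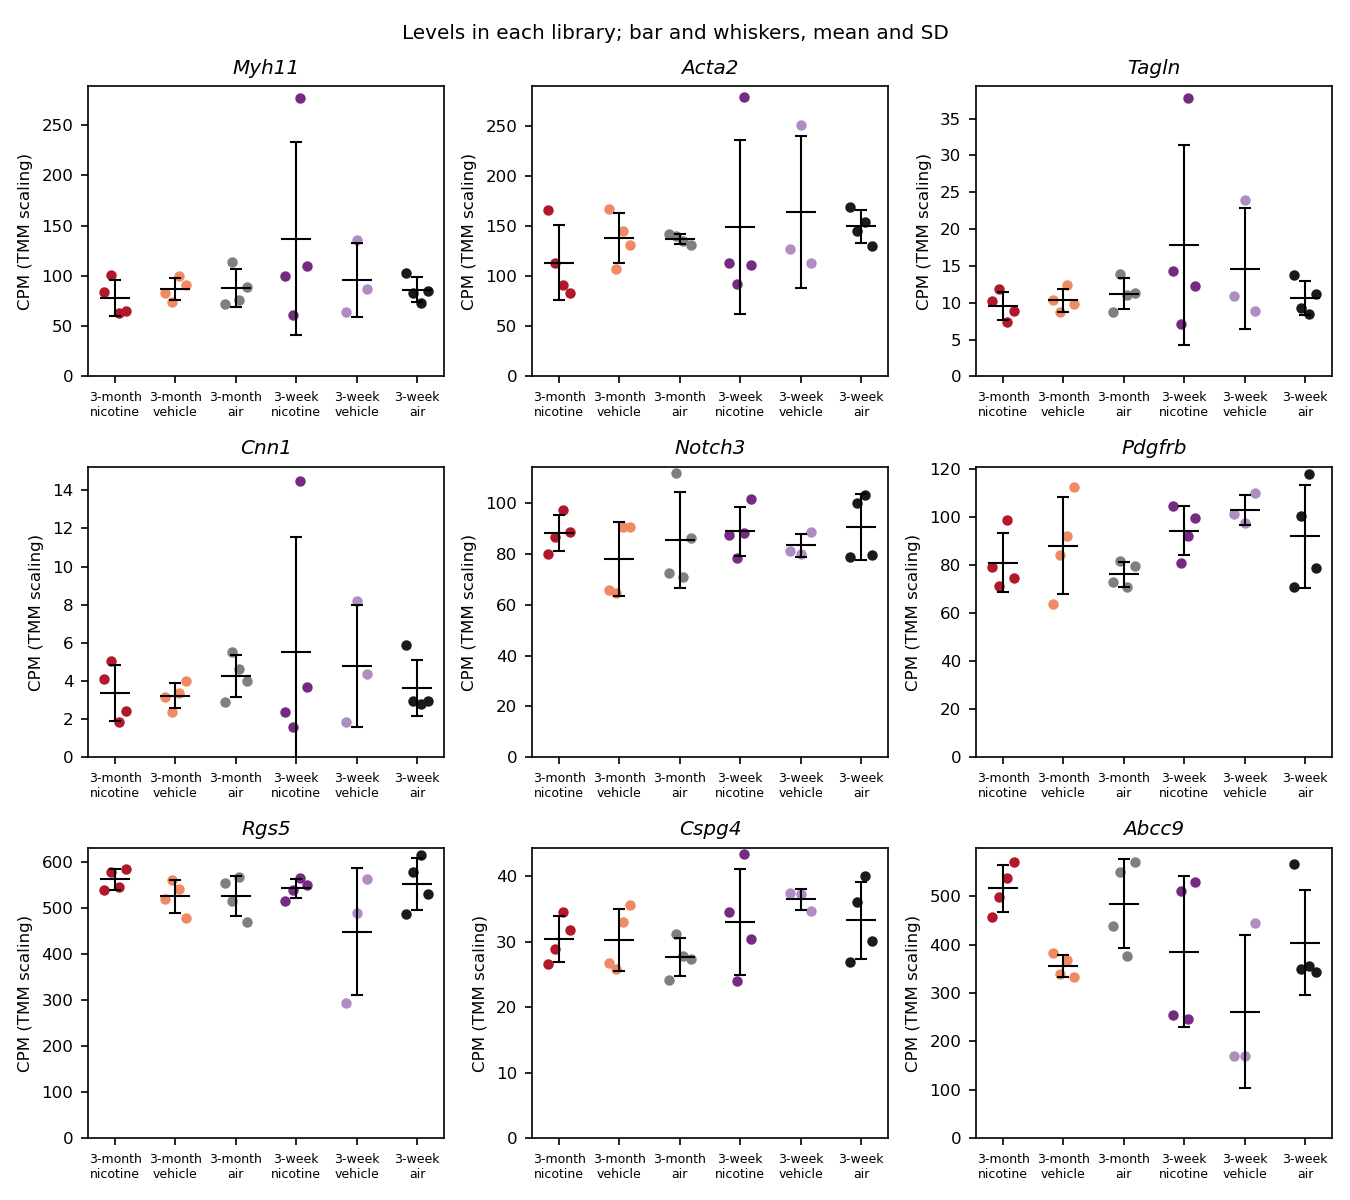
Level of each gene in every library, in CPM with TMM scaling, by exposure group (points, libraries; bars and whiskers, mean and SD; the lower whisker of Cnn1 in 3-week nicotine runs below 0 and is not drawn in full). A single 3-week nicotine library lies at 277 CPM for Myh11 and 279 CPM for Acta2, far above the other 3, while Abcc9 in 3-month nicotine (458 to 571 CPM) lies wholly above 3-month vehicle (333 to 382 CPM).

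The contractile genes showed no difference between groups that passed the test, and their main feature was a high level in single libraries of the 3-week start. Myh11, the smooth muscle myosin heavy chain and the gene most particular to that cell type, was at 99.4, 60.8, 277 and 110 CPM in 3-week nicotine libraries 2, 3, 5 and 6. It was at 63.9, 136 and 87.2 CPM in 3-week vehicle libraries 1, 2 and 4, and at 103, 82.9, 73.4 and 84.9 CPM in 3-week air libraries 1, 2, 4 and 5. Nicotine library 5 stood highest and vehicle library 2 was the next highest, while the other 9 libraries of this start overlapped each other. In mice that started at 3 months, Myh11 was at 84.4, 100.6, 62.9 and 64.6 CPM in nicotine, at 83, 73.8, 99.7 and 91.0 CPM in vehicle, and at 72.4, 114, 76.1 and 88.5 CPM in air. These 3 groups overlapped throughout.

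Acta2 reached 279 CPM in 3-week nicotine library 5 and 251 CPM in 3-week vehicle library 2, the same pair of libraries as for Myh11. Its other 3-week nicotine libraries were at 113, 92.1 and 111 CPM, its other vehicle libraries at 127 and 113 CPM, and its air libraries at 169, 145, 154 and 130 CPM. Apart from those high libraries, the 3-week nicotine and vehicle values lay below the air range. At the 3-month start Acta2 was at 166, 113, 90.7 and 83.2 CPM in nicotine, at 167, 107, 145 and 130 CPM in vehicle, and at 142, 140, 135 and 131 CPM in air. Air was the tightest of these groups (137 ± 5.09 CPM, SD, n = 4), and 3 of 4 nicotine libraries lay below all of it.

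Tagln, the actin-binding protein transgelin, was at 37.8 CPM in 3-week nicotine library 5 and 24.0 CPM in 3-week vehicle library 2, against 7.07 to 14.3 CPM in the other 21 libraries. Cnn1, calponin, which binds actin and restrains myosin, was at 14.5 and 8.19 CPM in that pair and at 1.56 to 5.86 CPM in the others. Summed over the 4 contractile genes, 3-week nicotine library 5 held 608 CPM and 3-week vehicle library 2 held 419 CPM, against 159 to 292 CPM in the rest. Nicotine library 3 of the same group had the lowest mean log2 level of these genes of all 23 libraries (4.02, against 6.34 in nicotine library 5), so both extremes fell within 1 exposure group.

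Other markers moved in these libraries as well. Activated fibroblast markers summed to 87.0 CPM in 3-week nicotine library 5 and 133 CPM in 3-week vehicle library 2, against 44.8 to 90.5 CPM in the rest. Atrial markers summed to 162 CPM in 3-week nicotine library 5 and 577 CPM in 3-week vehicle library 2, the highest of all libraries (range 114 to 577). Fibroblast markers summed to 3103 and 3274 CPM in the pair, the highest of all 23 libraries. Endothelial markers summed to 1963 and 2871 CPM in the pair, and Schwann cell and neuron markers to 29.0 and 37.5 CPM. Ventricular cardiomyocyte markers summed to 74496 and 68818 CPM. Vehicle library 2 was the highest of all libraries for the first 2 of these lists and the lowest for ventricular markers. Macrophage markers (134 and 169 CPM) lay within the range of the other libraries. The part of these markers in the level of the contractile genes was not tested. Of the mural genes, Cspg4 was at 43.3 CPM in nicotine library 5, its highest value of the 23 libraries, and at 37.3 CPM in vehicle library 2. Rgs5 was at 565 CPM in nicotine library 5 and 490 CPM in vehicle library 2, Notch3 at 88.1 and 80.1 CPM, and Pdgfrb at 92.3 and 97.7 CPM, all within the range of the other libraries.

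**Figure D2:**
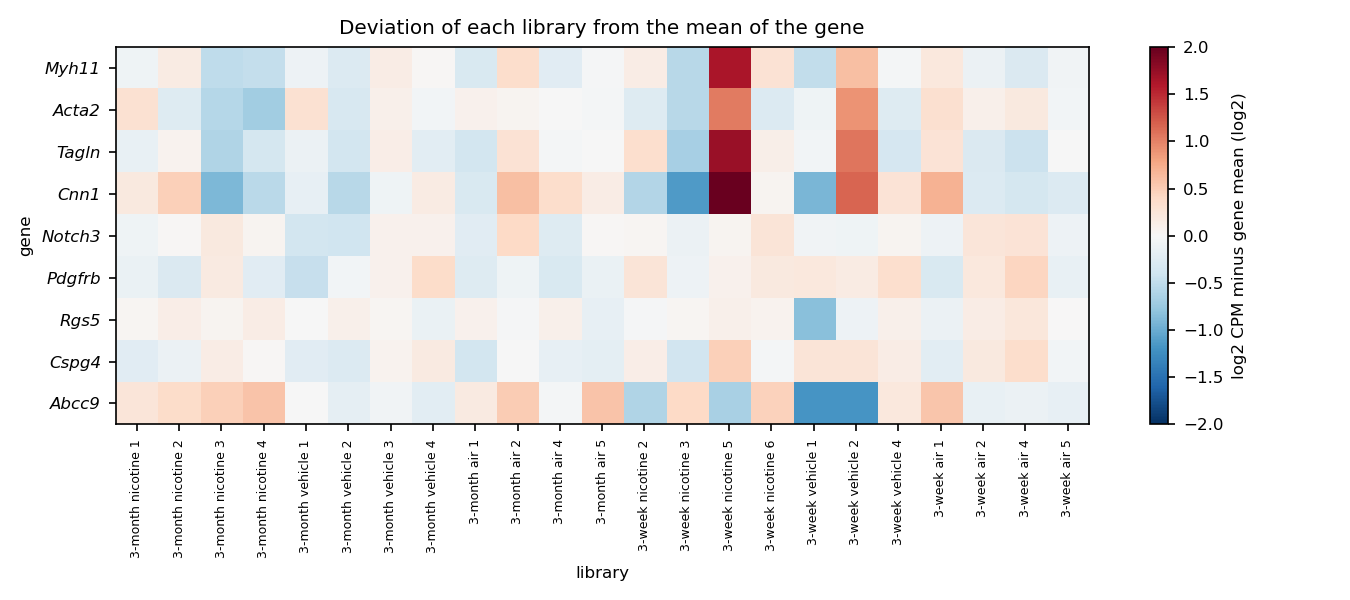
Deviation of each library from the mean of the gene over all 23 libraries, in log2 CPM (red above, blue below). The 4 contractile rows turn red together in 3-week nicotine library 5 and 3-week vehicle library 2, the Rgs5 row is pale except in 3-week vehicle library 1, and the Abcc9 row follows its own pattern.

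Over all 23 libraries, the spread between libraries of a group was larger for the contractile genes than for the mural ones. Its SD on the log2 scale, pooled within groups, was 0.78 for Cnn1, 0.54 for Tagln, 0.48 for Myh11 and 0.43 for Acta2, against a median of 0.26 over all tested genes. It was 0.23 for Pdgfrb and for Cspg4, 0.21 for Notch3 and 0.19 for Rgs5. Of the tested genes, 97.5% had a lower spread than Cnn1 and 83.3% a lower spread than Myh11, against 31.5% for Rgs5. Without 3-week nicotine library 5 and 3-week vehicle library 2, chosen after the values were seen, the spread was 0.52 for Cnn1, 0.31 for Tagln, 0.30 for Myh11 and 0.25 for Acta2. It was then 0.25 for Pdgfrb, 0.22 for Notch3, 0.21 for Cspg4 and 0.20 for Rgs5, so Acta2 was level with Pdgfrb. The share of tested genes with a lower spread than Myh11 was then 59.0%, and that for Cnn1 was 87.0%. Within the 3-month start it was 0.27 for Myh11 and 0.26 for Tagln, against 0.63 and 0.74 within the 3-week start. The spread of the median gene was 0.18 at the 3-month start and 0.31 at the 3-week start.

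The contractile genes varied together across libraries, though their ratios were not fixed. The proportionality coefficient, which is 1 when the ratio of 2 genes is the same in every library, lay between 0.68 and 0.93 for the 6 pairs of contractile genes. Myh11 and Tagln were the closest pair (0.93, with an SD of their log2 ratio of 0.19). The ratios to Cnn1 were looser, with an SD of 0.46 for Acta2, 0.39 for Tagln and 0.36 for Myh11. Among the mural genes, Pdgfrb and Cspg4 (0.75), Notch3 and Cspg4 (0.57) and Notch3 and Pdgfrb (0.56) varied together. Rgs5 did not, with -0.13 to 0.13 for its 3 pairs. The remaining 24 pairs ran from -0.49 to 0.35. These coefficients describe 23 libraries that share groups and high libraries, and no test was made of them.

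**Figure D3:**
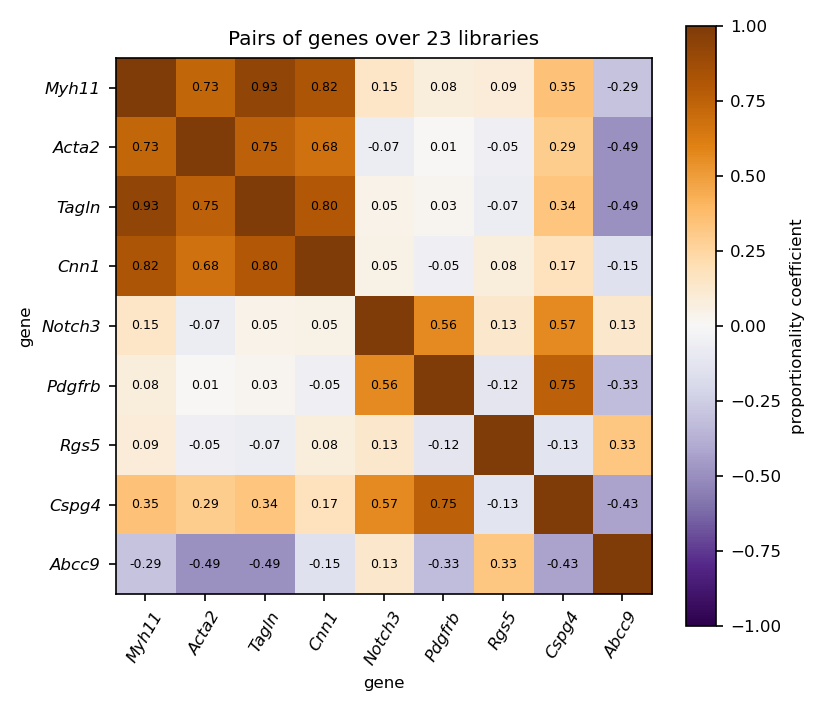
Proportionality coefficient of each pair of the 9 genes over the 23 libraries (1, constant ratio; 0, none; below 0, opposite movement). The contractile genes form a block at 0.68 to 0.93, Notch3, Pdgfrb and Cspg4 form another at 0.56 to 0.75, and Rgs5 and Abcc9 stand outside both.

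The genes most like each of the 9 were sought among the other 11482 tested genes that are not predicted models and had a mean log2 CPM of at least 1. Myl9, the regulatory light chain of smooth muscle myosin, came first for Myh11 (0.85) and Tagln (0.94) and was among the first 3 for Acta2 (0.78). The first for Acta2 was Csrp2 (0.79), a LIM protein of smooth muscle, and Tpm2, a tropomyosin, came next to Myl9 for Tagln (0.86). Cnn1 was most like Susd5 (0.81) and then the matrix genes Ltbp2 (0.78) and Mfap4 (0.75). Ltbp2 is also one of the 5 activated fibroblast markers above. Pdgfrb was most like Slco2b1 (0.92), a transporter of organic anions, and Rgs5 most like Mob1a (0.85), Lhfp and Sparcl1 (both 0.83). Notch3 (Setd1b, 0.79) and Cspg4 (Ndrg3, 0.86) were most like genes that are in none of the lists used here.

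The mural genes differed little between groups, and none passed the test in any comparison. Rgs5 was at 516, 538, 565 and 550 CPM in 3-week nicotine, at 294, 490 and 562 CPM in 3-week vehicle, and at 486, 579, 614 and 530 CPM in 3-week air. In mice that started at 3 months it was at 540, 578, 546 and 585 CPM in nicotine, at 520, 561, 541 and 478 CPM in vehicle, and at 555, 516, 566 and 471 CPM in air. Vehicle library 1 of the 3-week start was the lowest of the 23, with the next lowest at 471 CPM in 3-month air, and all groups overlapped. The same library had the highest sum of blood markers (2363 CPM, range of all libraries 304 to 2363), whose part in the low Rgs5 value was not tested.

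Pdgfrb, the receptor through which endothelial Pdgfb recruits pericytes, averaged 81.1 ± 12.3 CPM in 3-month nicotine, 88.3 ± 20.3 CPM in 3-month vehicle and 76.3 ± 5.25 CPM in 3-month air (SD, n = 4 each). At the 3-week start it averaged 94.4 ± 10.3 CPM in nicotine (SD, n = 4), 103 ± 6.31 CPM in vehicle (SD, n = 3) and 92.2 ± 21.5 CPM in air (SD, n = 4). Between air groups, Pdgfrb was lower by the point estimate in mice that started at 3 months (-0.27 ± 0.16 log2, SE), a difference that did not pass the test (edgeR adjusted p = 0.639). Its ligand gene Pdgfb averaged 78.2 CPM over the libraries, with log2 fold changes of -0.08 to 0.15 in the 6 exposure comparisons and no call.

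Notch3, the Notch receptor of arterial mural cells, averaged 88.0 ± 7.11 CPM in 3-month nicotine, 77.9 ± 14.6 CPM in 3-month vehicle and 85.3 ± 18.8 CPM in 3-month air (SD, n = 4 each). At the 3-week start it averaged 88.8 ± 9.67 CPM in nicotine (n = 4), 83.3 ± 4.66 CPM in vehicle (n = 3) and 90.4 ± 13.0 CPM in air (n = 4). All groups of Notch3 overlapped. Cspg4, the proteoglycan NG2 used to mark pericytes, averaged 30.5 ± 3.48, 30.2 ± 4.73 and 27.7 ± 2.87 CPM in 3-month nicotine, vehicle and air. In 3-week nicotine, vehicle and air it averaged 33.0 ± 8.12, 36.5 ± 1.61 and 33.3 ± 5.88 CPM. For both genes the groups overlapped in each of the 7 pairs of groups compared. Some pairs across starts were not compared. There Cspg4 in 3-week vehicle (34.61 to 37.48 CPM) lay above 3-month nicotine (26.57 to 34.59 CPM) and 3-month air (24.22 to 31.23 CPM). Pdgfrb in 3-week vehicle (97.7 to 110 CPM) also lay above 3-month air (70.9 to 81.9 CPM). The share of all genes without overlap was not computed for these pairs. Over Notch3, Pdgfrb, Rgs5 and Cspg4, the 95% intervals of the log2 fold changes in the 6 exposure comparisons reached no lower than -0.60 and no higher than 0.57. Larger changes than these lie outside the intervals.

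Abcc9, which encodes the sulfonylurea receptor SUR2, gave the only case of no overlap in the 7 pairs of groups compared, 1 of 63 values over the 9 genes. With the pore subunit Kcnj8 it forms the potassium channel of mural cells that opens when energy runs low, and cardiomyocytes use SUR2 with the pore subunit Kcnj11. It was at 458, 498, 538 and 571 CPM in 3-month nicotine, at 382, 340, 367 and 333 CPM in 3-month vehicle, and at 438, 549, 377 and 571 CPM in 3-month air. All 4 vehicle libraries lay below all 4 nicotine libraries, while air overlapped both. Summed endothelial markers also separated these groups, at 1671 to 1794 CPM in nicotine and 1966 to 2202 CPM in vehicle. So did summed blood markers (408 to 553 CPM in nicotine, 660 to 893 CPM in vehicle) and Schwann cell and neuron markers (14.8 to 18.8 CPM in nicotine, 19.7 to 22.6 CPM in vehicle). By mean log2 level, endothelial markers overlapped (nicotine up to 7.507, vehicle from 7.499). Schwann cell and neuron markers overlapped too (nicotine up to 1.58, vehicle from 1.44), while blood markers did not (nicotine up to 4.97, vehicle from 5.08). Ventricular cardiomyocyte markers summed to 81300 to 89545 CPM in nicotine and 76573 to 82038 CPM in vehicle, with overlap. The part of these markers in the Abcc9 level was not tested. The difference of nicotine from vehicle was 0.54 ± 0.28 log2 (SE) and did not pass the test in the fit of all 23 libraries (edgeR adjusted p = 0.419). With the 8 compared libraries fitted alone it was 0.51 ± 0.07 log2 with an adjusted p = 0.00101, and 14.2% of all genes were then called. The difference of vehicle from air was -0.44 ± 0.28 log2 (adjusted p = 0.439), with an adjusted p = 0.0207 in the 8 compared libraries alone, where 16.8% of all genes were called. In the fit of all libraries the spread of the 3-week libraries enters the error as well. Groups without overlap between 3-month nicotine and 3-month vehicle were found for 18.8% of all tested genes. In the other pairs 0 of 9 genes had such groups, against 3.7% of all genes for nicotine and 20.1% for vehicle against air at the 3-month start. The shares were 5.19% and 9.25% for nicotine and vehicle against air at the 3-week start, 4.88% for nicotine against vehicle there, and 5.01% between the air groups.

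At the 3-week start Abcc9 was at 255, 511, 247 and 529 CPM in nicotine libraries 2, 3, 5 and 6, at 171, 169 and 445 CPM in vehicle libraries 1, 2 and 4, and at 567, 350, 356 and 343 CPM in air libraries 1, 2, 4 and 5. Nicotine libraries 2 and 5 and vehicle libraries 1 and 2 lay below the air range and the other exposed libraries within it, so the groups overlapped. The vehicle-to-air difference was -0.63 ± 0.30 log2 (edgeR adjusted p = 0.135) and the nicotine-to-vehicle difference was 0.56 ± 0.30 log2 (adjusted p = 0.302). Both depended on single libraries. Without vehicle library 4 they were -1.25 (adjusted p = 0.00162) and 1.18 (adjusted p = 0.00421), and without vehicle libraries 1 and 2 they were 0.16 and -0.23 and did not pass the test.

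The level of Abcc9 moved with a trend of the whole library on transcript length. Across genes of a library, the rank correlation of deviation from the gene's mean with exonic length ran from -0.35 in 3-week nicotine library 2 to 0.32 in 3-month nicotine library 3. It was -0.24 to -0.11 in 3-month vehicle, against 0.0008 to 0.32 in 3-month nicotine and 0.09 to 0.30 in 3-month air. The 4 libraries lowest in Abcc9, namely 3-week vehicle libraries 1 and 2 and 3-week nicotine libraries 2 and 5, had -0.21, -0.28, -0.35 and -0.30. With an offset that removes this trend, the 3-month differences of Abcc9 were 0.42 log2 for nicotine against vehicle and -0.33 log2 for vehicle against air. The genes most like Abcc9 were Opa1, Akap6 and March6 (all 0.98), none of which is a mural cell marker. Exonic length was 8373 bases for Abcc9, 11931 for Cspg4, 8089 for Notch3 and 7599 for Myh11. Proportionality with Abcc9 was -0.43 for Cspg4, 0.13 for Notch3 and -0.29 for Myh11. The part of the length trend in the Abcc9 level was not tested beyond that offset.

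**Figure D4:**
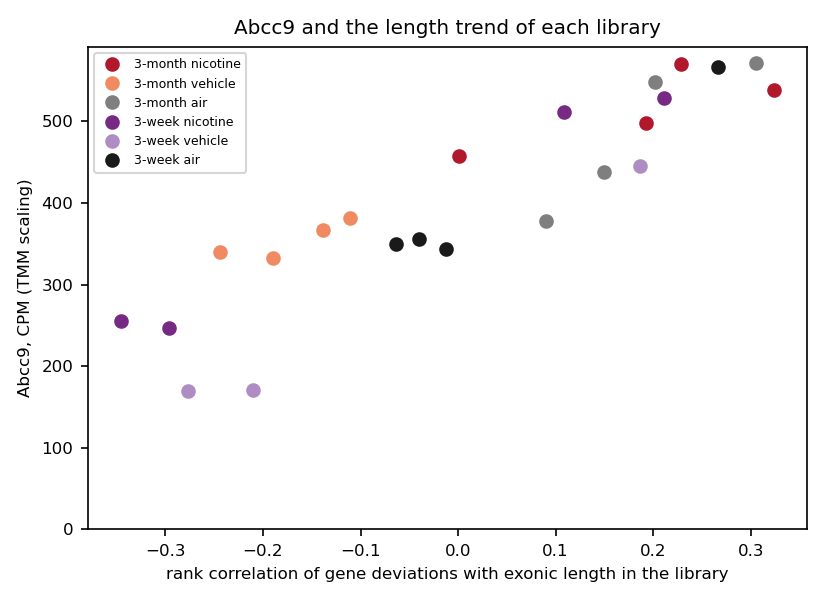
Abcc9 level (CPM with TMM scaling) against the rank correlation of gene deviations with exonic length in each of the 23 libraries, by group. The 4 libraries of 3-month vehicle lie at -0.24 to -0.11 and 333 to 382 CPM, and those of 3-month nicotine at 0.0008 to 0.32 and 458 to 571 CPM.

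The pore partners of Abcc9 did not pass the test. Kcnj8, the mural partner, averaged 36.4 ± 5.44 CPM in 3-month nicotine, 43.6 ± 11.8 CPM in 3-month vehicle and 33.4 ± 2.61 CPM in 3-month air (SD, n = 4 each). Its nicotine-to-vehicle difference was -0.26 ± 0.21 log2 (edgeR adjusted p = 0.555), the opposite sign to that of Abcc9. Kcnj11, the cardiomyocyte partner, averaged 199 ± 5.11, 160 ± 10.9 and 204 ± 19.8 CPM in the same 3 groups, with a difference of 0.32 ± 0.17 log2 between nicotine and vehicle (adjusted p = 0.424). Kcnj11 was added after the values of Abcc9 were seen.

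Taking the 9 genes through the 9 comparisons gave 81 tests, in which 0 passed an adjusted p of 0.05 in edgeR's quasi-likelihood test, and 0 passed in DESeq2. The smallest adjusted p was 0.134. An unadjusted p under 0.05 was reached 3 times. These were Myh11 and Tagln in 3-week nicotine against air, and Rgs5 in 3-week vehicle against air.

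For nicotine against air at the 3-month start, log2 fold changes ran from -0.34 (Cnn1) to 0.14 (Cspg4), and 0 of 9 genes were called, against 0% of all genes. The 4 contractile genes all had a point estimate below 0 (Acta2 -0.28 ± 0.29, Tagln -0.23 ± 0.36, Myh11 -0.17 ± 0.31 log2, SE) and the 4 mural genes above 0. The median of the 9 was 0.04, against 0.01 over all tested genes. For vehicle against air at this start, log2 fold changes ran from -0.44 (Abcc9) to 0.21 (Pdgfrb), with 0 of 9 called and 0% of all genes. For nicotine against vehicle they ran from -0.28 (Acta2) to 0.54 (Abcc9), again with 0 of 9 called and 0% of all genes. At an unadjusted p under 0.05 these comparisons held 0 of the 9 genes, against 2.63%, 14.2% and 12.2% of all tested genes.

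For nicotine against air at the 3-week start, Tagln averaged 17.8 ± 13.6 CPM in nicotine and 10.6 ± 2.36 CPM in air (SD, n = 4 each), and Myh11 averaged 137 ± 95.9 CPM in nicotine and 86.1 ± 12.5 CPM in air. Their log2 fold changes were 0.75 ± 0.36 and 0.67 ± 0.31 (SE), with edgeR adjusted p-values of 0.388 and 0.374. Without nicotine library 5 they were 0.08 and 0.06, with adjusted p-values of 0.965 and 0.966. Acta2, in contrast, had a log2 fold change of -0.01 ± 0.29 with all libraries. Of the 9 genes 0 were called, against 0.813% of all genes, and 2 had an unadjusted p under 0.05, against 12.8%. In the authors' deposited table of this comparison, the log2 fold changes of Tagln and Myh11 were 0.74 and 0.66, with adjusted p-values of 0.626 and 0.621. That table has 138 genes under an adjusted p of 0.05, and 0 of the 9 are among them. The authors' deposited table for the 3-month start has 43 genes under an adjusted p of 0.05, and gives an adjusted p of 0.999 for each of the 9 genes.

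For vehicle against air at the 3-week start, 16.2% of all genes were called but 0 of the 9. Rgs5 averaged 449 ± 139 CPM in vehicle (SD, n = 3) and 552 ± 56.1 CPM in air (SD, n = 4), a difference of -0.30 ± 0.14 log2 (SE, edgeR adjusted p = 0.134). It was -0.08 without vehicle library 1 and -0.49 without vehicle library 4 (adjusted p = 0.00813), and 0.04 without vehicle libraries 1 and 2 together, so its size rests on single libraries. Its sign turned only when both libraries were left out together, and 1 vehicle library then remained. The contractile genes had log2 fold changes of 0.13 (Acta2) to 0.46 (Tagln), with intervals from -0.75 to 1.55. For nicotine against vehicle at this start, log2 fold changes ran from -0.14 (Cspg4) to 0.56 (Abcc9), with 0 of 9 called and 0% of all genes. At an unadjusted p under 0.05, 1 and 0 of the 9 genes passed in these comparisons, against 37.3% and 19.3% of all genes.

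**Figure D5:**
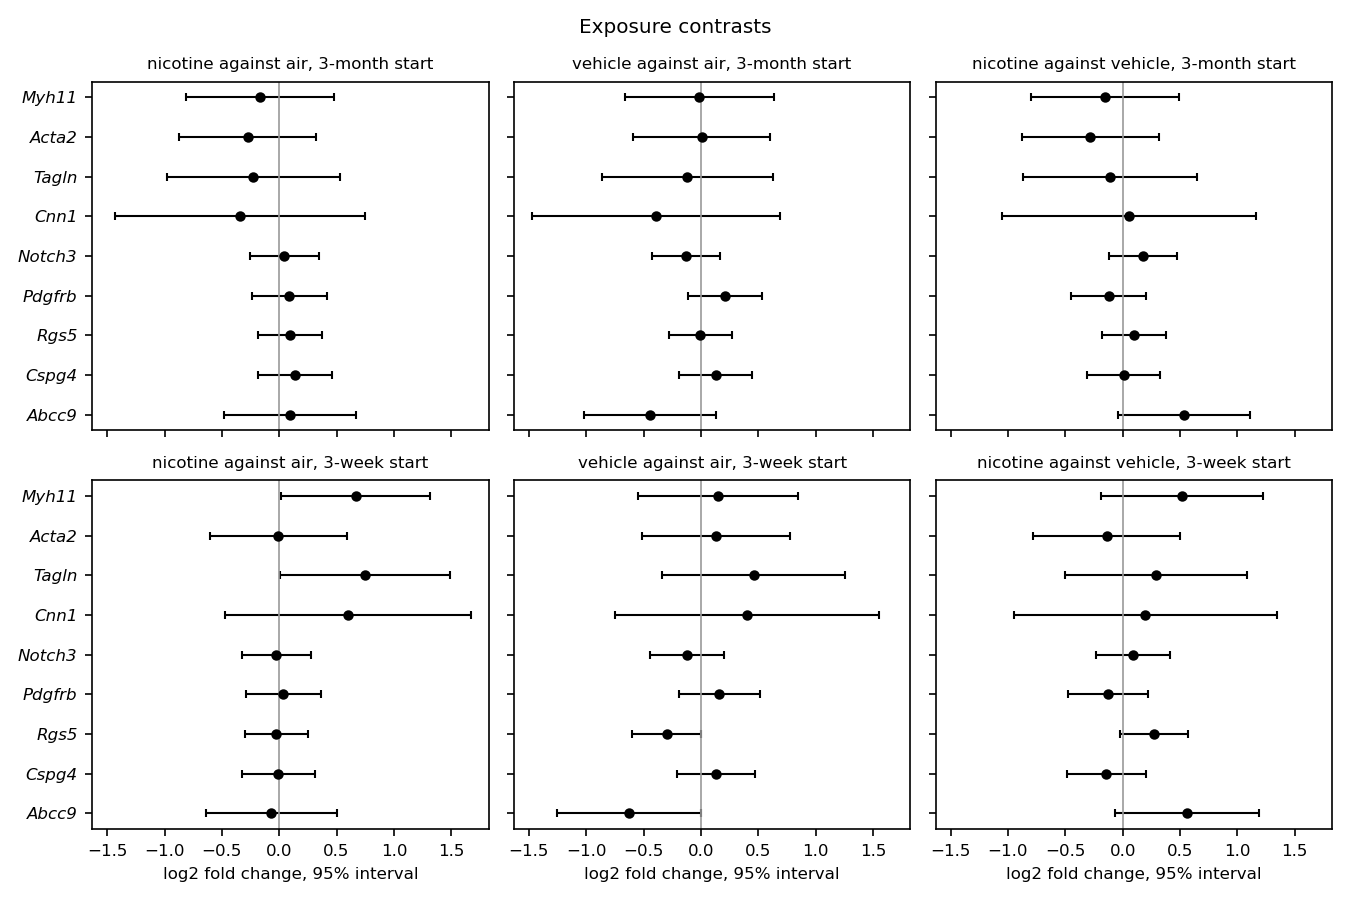
Log2 fold changes with 95% intervals for the 9 genes in the 6 exposure comparisons (edgeR, fit of all 23 libraries). Intervals of the contractile genes are wide and those of Notch3, Pdgfrb, Rgs5 and Cspg4 narrow, and the only intervals that leave 0 are those of Myh11 and Tagln in 3-week nicotine against air and of Rgs5 in 3-week vehicle against air, none of which passed the adjusted test.

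For starting age in air-exposed mice, log2 fold changes of the 3-month against the 3-week start ran from -0.27 (Pdgfrb) to 0.26 (Abcc9), with 0 of 9 called against 0.00645% of all genes. Of the 19 further pericyte and mural genes listed below, 2 had a positive log2 fold change in this comparison, with a median of -0.31 against -0.01 over all genes. Of 21 genes of PDGF, Notch and angiopoietin signalling 5 were positive (median -0.20), and 0 genes of either list were called. The nicotine effect at 3 months minus that at 3 weeks was -0.97 ± 0.51 log2 for Tagln, -0.94 ± 0.74 for Cnn1 and -0.83 ± 0.44 for Myh11 (SE, edgeR adjusted p = 0.546, 0.762 and 0.557). It was called for 0 of 9 genes and for 0.135% of all genes. The corresponding difference of vehicle effects ran from -0.79 (Cnn1) to 0.29 (Rgs5), with 0 of 9 called and 0% of all genes. At an unadjusted p under 0.05, 0 of 9 genes passed in these 3 comparisons, against 9.08%, 10.2% and 12% of all genes. Both differences of effects carry the high 3-week libraries described above.

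Of 17 further genes of the smooth muscle contractile apparatus, 0 were called in any comparison except 3-week vehicle against air. There 2 rose and 2 fell, against 9.27% of all genes called higher and 6.92% lower. Nexn, an actin-binding protein that is also abundant in cardiomyocytes, averaged 1572 ± 584 CPM in vehicle (SD, n = 3) and 898 ± 117 CPM in air (SD, n = 4; 0.81 log2, adjusted p = 0.0187). Sncg, gamma-synuclein, rose by 0.67 log2 (adjusted p = 0.0416). Ppp1r12b, a myosin phosphatase subunit, and Synpo2, an actin-bundling protein, fell by 0.81 and 0.66 on the log2 scale (edgeR adjusted p = 0.0489 and 0.0468). They averaged 324 and 162 CPM in air. Which cells these transcripts came from was not tested, so they cannot be read as smooth muscle alone. The list's median was 0.11 log2, against 0.02 over all genes, and in 3-week nicotine against air it was 0.21 against 0.02.

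Among 10 measured regulators and targets of the actin-Srf pathway, calls ran one way at the 3-week start. In nicotine against air 0 rose and 2 fell, where 0.0903% of all genes were called higher and 0.723% lower. Tpm4, a tropomyosin, was at 80.4 ± 6.35 CPM in nicotine and 158 ± 39.6 CPM in air (SD, n = 4 each; -0.98 ± 0.19 log2, SE, adjusted p = 0.0202), and Cnn2, a calponin of non-muscle cells, was at 38.4 ± 4.32 CPM in nicotine and 63.2 ± 14.2 CPM in air (-0.72 log2, adjusted p = 0.0336). In vehicle against air 0 rose and 3 fell, against 9.27% of all genes called higher and 6.92% lower. These were Tpm4 (-0.75 log2, adjusted p = 0.0269), Srf (-0.68 log2, adjusted p = 0.0284) and Vcl (vinculin, -1.36 log2, adjusted p = 0.0475). The list's median was -0.34 log2 in nicotine against air and -0.21 log2 in vehicle against air, against 0.02 over all genes in both. Srf averaged 121 ± 18.4 CPM in 3-week nicotine, 110 ± 25.5 CPM in 3-week vehicle and 176 ± 53.8 CPM in 3-week air. Its cofactor Myocd averaged 25.9 ± 11.2, 17.9 ± 10.4 and 33.1 ± 11.7 CPM in the same groups and was not called. In nicotine against air Srf did not pass the test (-0.54 log2, adjusted p = 0.147). None of the 4 contractile genes Myh11, Acta2, Tagln and Cnn1 was called in either comparison. Blood markers summed to 1087 to 1406 CPM in 3-week nicotine and 505 to 931 CPM in 3-week air, with no overlap, and mesothelial markers to 6.95 to 9.82 CPM in nicotine, 7.55 to 18.7 CPM in vehicle and 9.72 to 44.3 CPM in air. Their part in the calls of this list was not tested.

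Of 19 further pericyte and mural genes, 1 rose and 2 fell in 3-week vehicle against air, with 0 calls in the other comparisons. In that comparison 9.27% of all genes were called higher and 6.92% lower, so these counts lie near the background. Ebf1, a transcription factor of mural and other cells, rose by 0.69 log2 (adjusted p = 0.0236). Mcam, the adhesion molecule CD146 of mural and endothelial cells, and Ednra, the endothelin receptor of smooth muscle, fell by 0.57 and 0.51 on the log2 scale (adjusted p = 0.0313 and 0.0367). Of 21 genes of PDGF, Notch and angiopoietin signalling, Pdgfa rose by 0.61 log2 (adjusted p = 0.0391) and Notch1 fell by 0.57 log2 (adjusted p = 0.0379) in that comparison, with 0 calls elsewhere. These counts of 1 of 21 in each direction lie below the same shares of all genes. Jag1, the ligand of Notch3, averaged 28.8 ± 2.42 CPM in 3-week vehicle and 19.2 ± 8.41 CPM in 3-week air (0.58 ± 0.27 log2, adjusted p = 0.126). Heyl, a target of Notch in mural cells, averaged 30.4 ± 5.78 and 29.9 ± 7.03 CPM in the same groups.

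The calls in these 4 lists depended on single libraries. For vehicle against air at the 3-week start, 0 genes of any kind passed when air library 1 was left out, 0 when vehicle library 1 was left out, and 0 with the 7 compared libraries fitted alone. For nicotine against air, Tpm4 stayed past the threshold in 3 of 8 fits that each left out a library and Cnn2 in 2 of 8. Without air library 1, only Cd93 of all genes passed in that comparison. Their direction did not turn in any alternative except for Pdgfa, which was at -0.19 log2 without 3-week vehicle libraries 1 and 2.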

How the data were processed

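RNA of the left ventricle was measured in 23 libraries of 6 groups, mapped by the labels' age at exposure and treatment. The authors deposited whole-number counts per Ensembl gene, not normalized. The submitters' processing notes name featureCounts (Subread 1.5.2), STAR 2.5.2b, Trimmomatic 0.36 and DESeq2, with no roles. Genome build, annotation and strand setting were not given in the sources used here. For nicotine against air the authors also deposited their log2 fold changes and adjusted p-values, per the file headers, which are quoted only where named. A deposited table of ontology terms was not used here.

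Counts were fitted in R 4.3.3 with edgeR 4.0.16, with robust quasi-likelihood, all 6 groups in one model and TMM scaling (17 residual degrees of freedom). The filter filterByExpr had a minimum count of 10 and left 15500 genes. P-values are two-sided and were adjusted by Benjamini-Hochberg over all of these within each of the 9 contrasts, and a gene was called at an adjusted p under 0.05. Log2 levels used a prior count of 2. Log2 fold changes are given with SE and levels with SD. Totals of 12297955 to 17821550 counts per library and groups of 3 or 4 limit the precision. GENCODE vM21 gave symbols and exonic lengths, matched on gene ID. The table had 0 columns of counts without a sample. The fitting code was tested on simulated data.

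The 9 genes and the lists of related genes were chosen with earlier results of these data known. Named genes were the 9, related genes past the threshold in a contrast (at most 6 per list), fixed partners of the 9, and the 3 genes most proportional to each. Alternatives were RLE size factors, no filter on low counts, a minimum count of 30, the compared groups alone, DESeq2 1.42.0, a transcript length offset, a replicate block, and leaving out each library or the libraries named. Leaving out 3-week nicotine library 5 with 3-week vehicle library 2, and following Abcc9 through the alternatives, were chosen after seeing the data.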

Additional observations from a re-analysis of the deposited data

Results flagged for a closer look

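In groups of 4 libraries, the highest or lowest value was compared with its neighbour by Dixon's 95% criterion. Of 45 gene and group combinations 4 stood apart. The criterion picks about 1 in 20 by chance only for independent, normally distributed values. These were CPM of genes that share libraries and partly vary together, so the count cannot be set against that rate. Acta2 in 3-week nicotine library 5 was at 279 CPM, with the next library at 113 CPM. Cnn1 in the same library was at 14.5 CPM, with the next at 3.71 CPM. In 3-week air, library 1 was at 5.86 CPM for Cnn1, with the next at 2.95 CPM, and at 567 CPM for Abcc9, with the next at 356 CPM. Groups of 3 were not examined, so 3-week vehicle library 2 could not be picked out in this way.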

How the results depend on the processing

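The count of the 9 genes called was 0 in each of the 9 comparisons and in all but 4 of 161 combinations of comparison and alternative. In some of these, 0 of all genes were called too. In the fit of all libraries this held for the exposure comparisons of the 3-month start. It also held for vehicle against air at the 3-week start without air library 1 or without vehicle library 1. A count of 0 there is not particular to the 9 genes. With the compared groups alone, 1 gene (Abcc9) was called in vehicle against air and 1 (Abcc9) in nicotine against vehicle at the 3-month start, where the spread of the 3-week libraries no longer enters. Leaving out each library in turn gave 0 to 2 genes in vehicle against air and 0 to 2 in nicotine against vehicle at the 3-week start, and 0 elsewhere. The 2 were Rgs5 and Abcc9, without 3-week vehicle library 4, where a large share of all genes was called too (6826 and 4641). The cause was not tested. Without 3-week vehicle libraries 1 and 2 the sign turned for Rgs5 (0.0426 log2) and Abcc9 (0.16 log2) against air, and for Abcc9 in nicotine against vehicle (-0.234 log2). That fit takes the spread of the single vehicle library left from the other groups. With all genes counted, vehicle against air at the 3-week start gave 2509 calls in the fit of all libraries, 3419 with DESeq2, 1279 without a filter and 0 with the compared groups alone. Nicotine against air at that start gave 126, 474, 76 and 0 calls under the same settings.

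Replicate numbers of the labels were not treated as pairs in the main fit. Deviations of same-numbered libraries correlated at -0.37 to 0.28, and no pair of groups with 3 or more shared numbers had all its correlations above 0.1. Fewer numbers were shared by 3-week nicotine and air (0.23 and 0.11) and by 3-week nicotine and vehicle (0.28), so pairing could not be decided there. With a replicate block, 0 of the 9 genes were called in each of the 9 comparisons. With that block 0 of all genes were called in nicotine or in vehicle against air at the 3-week start. There the count of 0 is not particular to the 9 genes. Cnn1, with as few as 19 counts in a library, is the gene most limited by depth. With 3 or 4 libraries per group the precision is limited to the intervals given. The smallest effect that could be detected was not computed for these genes.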
